A study of Mus musculus with 41 samples.

Results

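The genes described here are Nampt and 8 other genes of nicotinamide adenine dinucleotide (NAD) metabolism, Nmnat1, Nmnat2, Nmnat3, Nadsyn1, Nadk, Nnmt, Sirt1 and Parp1. They were taken by symbol from the 4 deposited count tables and make up 9 of the 24371 genes in each table. The set was chosen by the level of Nampt in the sorted mesenchyme after dexamethasone and after saline, so the values of the 9 genes in that contrast are a description and carry no test.

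NAD carries electrons in fuel oxidation and is also a substrate that sirtuins, poly(ADP-ribose) polymerases and NAD glycohydrolases consume, releasing nicotinamide. Nampt, the rate-limiting enzyme of salvage, turns nicotinamide into nicotinamide mononucleotide, which the Nmnat enzymes join to ATP to give NAD. Nadsyn1 completes synthesis from tryptophan or nicotinic acid, Nadk makes NADP, and Nnmt methylates nicotinamide so that it leaves the cycle.

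The study followed the response of fetal mouse lung to the synthetic glucocorticoid dexamethasone. In the bulk mesenchyme experiment, dams were injected at E18.5 (E, embryonic day) and lungs were taken 2 h later from Twist2Cre;Rosa26mT/mG pups, in which Cre driven from Twist2 switches a red membrane label to green; lungs were pooled by genotype and red-negative, green-positive cells were sorted, giving 4 pools after dexamethasone at 1 mg/kg and 2 pools after saline. A second set from E18.5 lung held 1 library of CD106+ cells after dexamethasone at 1 mg/kg, in a table of its own. It also held 2 libraries of CD106+ cells and 2 libraries of CD106- cells, which shared another table. The labels give no strain, time after injection or, apart from the first library, treatment. CD106 is the adhesion protein Vcam1. The third set held single cells of wild-type C57Bl6/J lung captured on the C1 microfluidic system, 15 from pups of dams injected at E17.5 with dexamethasone at 2 mg/kg and 11 after saline, harvested 24 h after injection. No deletion of the glucocorticoid receptor is named in the labels of these groups, and 4 chromatin accessibility samples were not analysed here.

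Total counts ran from 2220647 to 4224245 in the dexamethasone pools and from 1670896 to 2431420 in the saline pools. They were 3790544 in the dexamethasone CD106+ library, 4987175 to 7133941 in CD106+ libraries and 5198705 to 6007400 in CD106- libraries. Levels are CPM, a gene's counts relative to its library's total, which are not corrected for gene length, so levels are compared between samples and not between genes. No label ties a library to its own litter, and the replicate spread behind each p-value may therefore be technical. The known glucocorticoid targets Fkbp5, Tsc22d3 and Errfi1 rose in the dexamethasone pools, with log2 fold changes of 2.59, 1.77 and 2.48 (edgeR, adjusted p under 0.05), and Per1 and the receptor gene Nr3c1 did not pass the test. All 7 mesenchymal markers were counted in every mesenchyme pool. The pools also differed in other ways. Summed CPM of 6 cartilage markers was 17.0 to 376 in dexamethasone pools and 604 to 1434 in saline pools. Other marker sums also did not overlap: 5 smooth muscle markers had 1021 to 1088 CPM in dexamethasone pools and 1606 to 1910 CPM in saline pools, 5 cardiac markers 151 to 273 CPM in dexamethasone pools and 324 to 378 CPM in saline pools, and 5 mesothelial markers 31.0 to 41.1 CPM in dexamethasone pools and 53.9 to 58.4 CPM in saline pools. The part of these 3 lists in the differences between the pools was not tested. Xist was at 374, 11111, 12.6 and 6.59 CPM in dexamethasone pools 1 to 4 and at 33133 and 20880 CPM in saline pools. Ddx3y, the other sex-linked gene checked, was higher in every dexamethasone pool than in both saline pools (log2 fold change 7.88). By these genes, the mix of pup sexes in the pools differed along with treatment.

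Of the 7 genes with enough counts to fit in the mesenchyme, Nampt had the widest difference. It had 437, 656, 431 and 578 CPM in the dexamethasone pools, against 103 and 113 CPM in the saline pools. Every dexamethasone pool lay above both saline pools, and the means were 525 ± 110.4 CPM (SD, n = 4) and 108 ± 6.90 CPM (SD, n = 2), a ratio of 4.87. The fitted log2 fold change was 2.35 with a standard error (SE) of 0.26. These values rest on 956 to 1929 Nampt counts per dexamethasone pool and on 172 and 274 counts in the saline pools. The dexamethasone pool with the most Xist, pool 2, also had the most Nampt, and with Xist as a covariate the log2 fold change was 2.53. With the mean log2(CPM + 1) of the cartilage markers as a covariate it was 2.06, and with any 1 pool left out it was 2.24 to 2.44. In bulk pools, a change in RNA per cell and a change in the share of cells that express a gene cannot be told apart.

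The promoter of Nampt is shown because it is the gene of the 7 with the widest difference. Those of Nt5e and Tiparp are shown because they are the NAD genes outside the 9 that the fit called in the same pools. Each line gives the 250 bases before the annotated start, 5′ to 3′ on the gene's strand, from RefSeq on GRCm38.p6; capitals mark GCGTG or its reverse complement CACGC, the core of the aryl hydrocarbon receptor element.
Nampt, chr12:32820085-32820334, plus strand: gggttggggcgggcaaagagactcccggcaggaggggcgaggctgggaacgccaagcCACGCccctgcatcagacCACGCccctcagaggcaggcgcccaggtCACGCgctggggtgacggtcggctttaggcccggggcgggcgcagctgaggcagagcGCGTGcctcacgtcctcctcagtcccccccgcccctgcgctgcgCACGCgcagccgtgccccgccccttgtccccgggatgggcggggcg
Nt5e, chr9:88327359-88327608, plus strand: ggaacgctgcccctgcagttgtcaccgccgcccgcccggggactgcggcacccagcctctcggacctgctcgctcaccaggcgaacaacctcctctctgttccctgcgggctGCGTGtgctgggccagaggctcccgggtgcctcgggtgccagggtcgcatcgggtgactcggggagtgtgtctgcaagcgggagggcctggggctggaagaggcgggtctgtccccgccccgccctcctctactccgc
Tiparp, chr3:65528197-65528446, plus strand: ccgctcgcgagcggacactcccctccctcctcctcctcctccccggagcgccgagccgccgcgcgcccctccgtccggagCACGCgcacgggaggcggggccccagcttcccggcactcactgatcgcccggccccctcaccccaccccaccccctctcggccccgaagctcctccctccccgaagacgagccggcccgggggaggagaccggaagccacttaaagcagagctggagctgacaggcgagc

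The Nampt window held 5 of these cores on both strands together, against 1 in Nt5e and 1 in Tiparp. At least 1 core was present in 28.2% of 32851 promoter windows of this length, and 5 or more in 0.298%. Guanine and cytosine made up 75.6% of the Nampt window, 72% of that of Nt5e and 75.2% of that of Tiparp, against a median of 52.4% over all windows. The core itself holds CG, and its share among windows as rich in these bases was not counted. The glucocorticoid receptor half-site AGAACA, or TGTTCT on the other strand, was in none of the 3 windows and in 16.1% of all windows, and the full palindrome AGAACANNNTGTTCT was in 0.00913% of all windows. The E-box CACGTG, found in 6.02% of all windows, was in none of these 3. A match is only a run of letters, and its absence says only that these letters are not in this window.

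Nampt lies on chromosome 12 at 32820335 to 32853369 (GRCm38.p6), and the long noncoding RNA gene Gdap10 lies inside that span at 32824116 to 32826919. Gdap10 had 314, 319, 435 and 313 CPM in the dexamethasone pools, against 62.8 and 74.0 CPM in the saline pools. Its log2 fold change was 2.40 (SE 0.26), close to that of Nampt, and every dexamethasone pool lay above both saline pools. Gdap10 was picked because its level followed that of Nampt over these libraries, so its values are a description and carry no test. Over the 11 bulk libraries the ratio of Gdap10 to Nampt was 0.42 to 1.01. Because use of strand in the counting is not given in the sources used here, reads of these overlapping genes may not have been told apart.

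**Figure D1:**
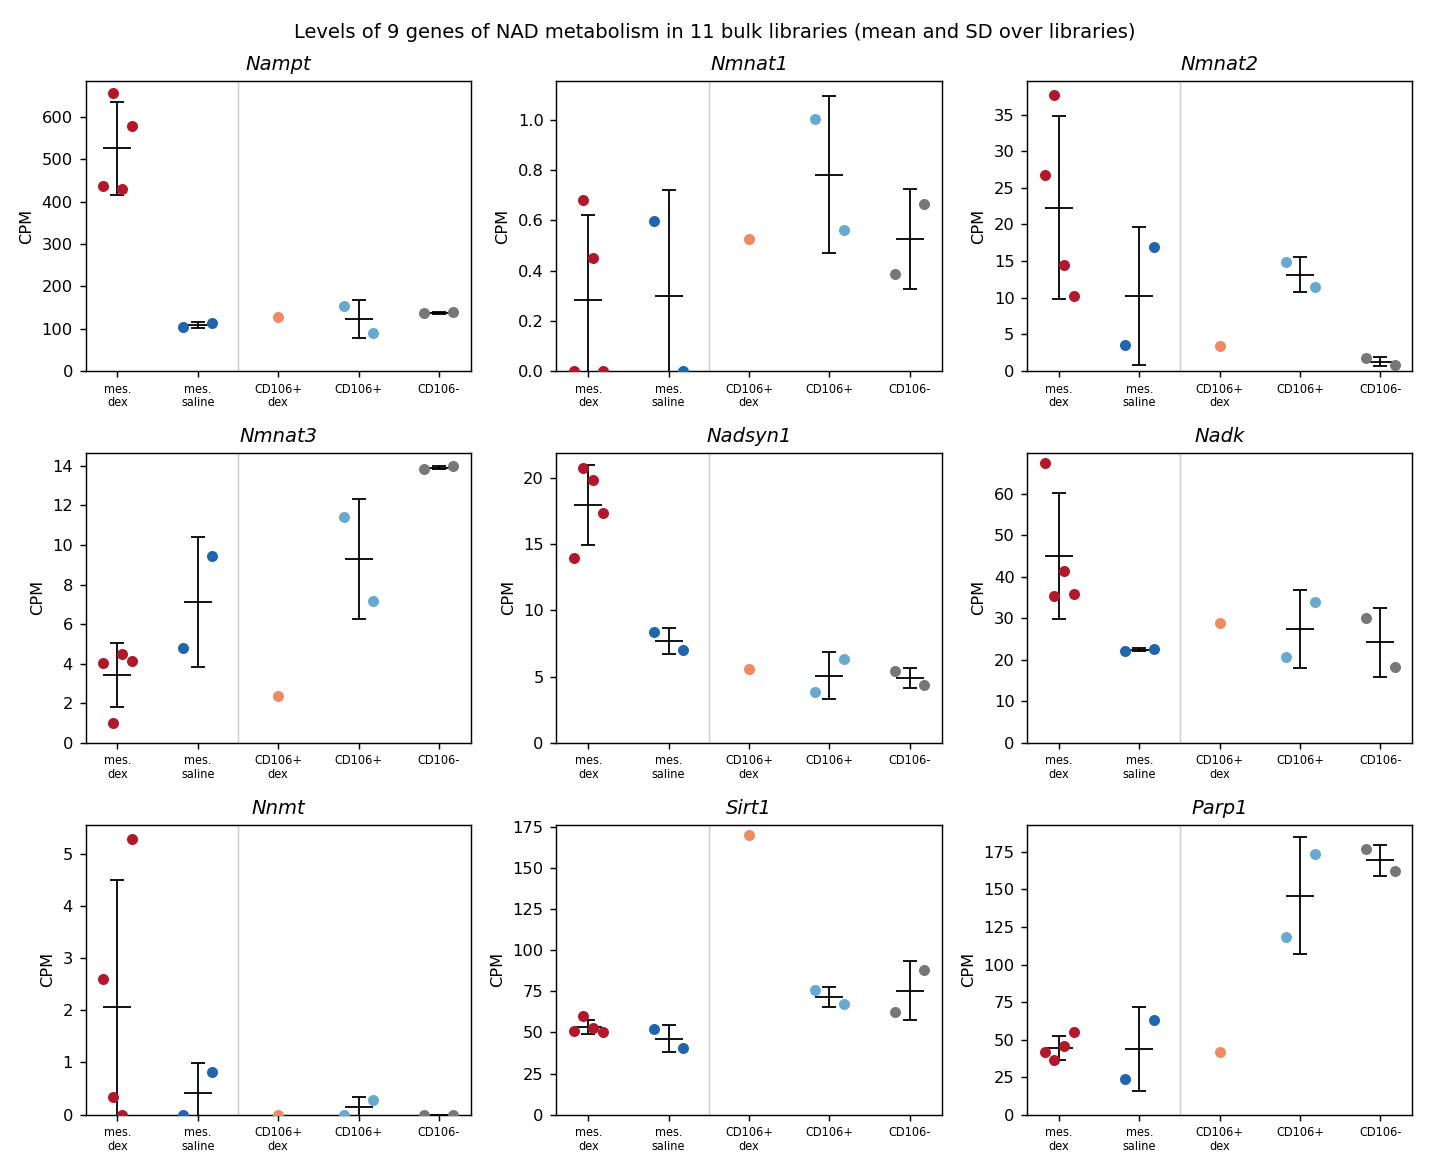
Level in CPM of each of the 9 genes in the 11 bulk libraries, 1 panel per gene; points are libraries, horizontal lines are group means, error bars are SD where a group has more than 1 library, and the grey line parts the mesenchyme pools (mes.) from the CD106 fractions. The 4 dexamethasone mesenchyme pools sit at 431 to 656 CPM for Nampt, and every other library sits at 90.7 to 154 CPM.

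Outside the dexamethasone mesenchyme pools, Nampt kept to a narrow range. In order of the group mean, it had 525 ± 110.4 CPM in dexamethasone mesenchyme, 137 ± 1.67 CPM in CD106- cells, 127 CPM in the dexamethasone CD106+ library, 122 ± 44.9 CPM in CD106+ cells and 108 ± 6.90 CPM in saline mesenchyme (SD, n = 2 for each group other than the first, with 4, and the dexamethasone CD106+ library). Neighbours below the first in this order did not differ beyond the spread of the CD106+ libraries, which ran from 90.7 to 154 CPM. The 5 genes whose log2(CPM + 1) followed Nampt most closely over the 11 libraries, of 6680 genes with a mean of at least 20 CPM, were Gdap10, Klhl2, Syde2, Fbxl20 and Arrdc3, with Pearson's r of 0.96, 0.96, 0.95, 0.95 and 0.95. The libraries share groups, so these values describe the high level in the dexamethasone mesenchyme pools that all 5 genes share. Arrdc3, for example, averaged 933 CPM in dexamethasone mesenchyme and 218 CPM in saline mesenchyme.

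The Nmnat enzymes take the product of Nampt on to NAD. Nmnat2, the cytosolic and Golgi form that axons need to survive, had 26.8, 37.7, 14.4 and 10.2 CPM in the dexamethasone pools, against 3.59 and 16.9 CPM in the saline pools. The groups overlapped, and the log2 fold change was 1.17 (SE 0.62). It varied with the saline pools, at 0.54 without saline pool 1 and 2.65 without saline pool 2, and it was 2.17 with Xist and -0.029 with the cartilage markers as a covariate. Nmnat3, the mitochondrial form, had 4.02, 1.02, 4.50 and 4.15 CPM in the dexamethasone pools, against 4.79 and 9.46 CPM in the saline pools. All dexamethasone pools lay below both saline pools, but on 3 to 17 counts each, and the log2 fold change was -0.98 (SE 0.84), or -0.45 without saline pool 2 and -2.36 with Xist as a covariate. Nmnat1, the nuclear form, had 1.00 CPM or less in all 11 bulk libraries and was too low to test.

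Nadsyn1, the NAD synthetase, had 14.0, 20.7, 19.8 and 17.3 CPM in the dexamethasone pools, against 8.38 and 6.99 CPM in the saline pools. The groups did not overlap, and the log2 fold change was 1.28 (SE 0.50). Nadk, the cytosolic NAD kinase, had 67.2, 35.3, 41.4 and 35.8 CPM in the dexamethasone pools, against 22.1 and 22.6 CPM in the saline pools. All dexamethasone pools again lay above both saline pools, at a log2 fold change of 1.07 (SE 0.38). Among the consumers, Sirt1, a nuclear deacetylase, had 50.9, 59.8, 52.7 and 50.5 CPM in the dexamethasone pools, against 52.1 and 40.3 CPM in the saline pools. Parp1, the polymerase recruited to DNA breaks, had 41.4, 36.4, 45.5 and 55.1 CPM in the dexamethasone pools, against 23.9 and 63.3 CPM in the saline pools. Both overlapped between groups, with log2 fold changes of 0.27 (SE 0.31) for Sirt1 and 0.10 (SE 0.37) for Parp1. Sirt1 was at 0.54 without saline pool 1 and 0.06 without saline pool 2, and Parp1 at -0.38 without saline pool 1 and 0.92 without saline pool 2. Nnmt had 11, 1, 0 and 14 counts in the dexamethasone pools, against 0 and 2 counts in the saline pools, and was too low to test. It was at 0 in 6 of the 11 bulk libraries.

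Of the 9 genes, 7 had enough counts to enter the mesenchyme fit. As a description only, 1 of the 7, Nampt, was among the genes that the fit called, which were 2.69% of all 11356 genes in it at an edgeR adjusted p under 0.05, 1.95% as higher and 0.740% as lower. The 7 had a median log2 fold change of 1.07, beside -0.01 over all tested genes. Nampt, Nadsyn1 and Nadk were higher in every dexamethasone pool, which held for 9.99% of tested genes, and Nmnat3 was lower in every one, which held for 13.0%. Since the genes were chosen with this contrast known, these counts describe the choice and nothing is read from them.

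Among 48 other genes of NAD synthesis, transport and use, 32 could be tested in the mesenchyme, 2 rose and 0 fell by edgeR, and DESeq2 and limma-voom gave the same counts. At an unadjusted p of 0.05 in edgeR, 5 of the 32 were higher and 0 lower. Of all 11356 tested genes, 1571 were under it in either direction. The 2 that rose are Nt5e and Tiparp, and the median of the 32 was 0.10. The list of 48 was also chosen with earlier results of these data known, so these calls too are a description. Nt5e, the ectonucleotidase CD73, which makes adenosine from AMP at the cell surface, had 59.2, 83.6, 27.5 and 57.3 CPM in the dexamethasone pools, against 9.58 and 10.3 CPM in the saline pools. Every dexamethasone pool lay above both saline pools, and the log2 fold change was 2.58 (SE 0.46, edgeR adjusted p = 0.0040). Tiparp, a mono-ADP-ribosyltransferase that uses NAD and is a target gene of the aryl hydrocarbon receptor, had 248, 326, 206 and 242 CPM in the dexamethasone pools, against 42.5 and 75.3 CPM in the saline pools. Its groups did not overlap either, and the log2 fold change was 2.18 (SE 0.29, edgeR adjusted p = 2.2e-04). With the mean log2(CPM + 1) of the cartilage markers as a covariate, Nt5e had a log2 fold change of 1.26 (edgeR adjusted p = 0.90). Tiparp had 1.69 (edgeR adjusted p = 0.076), so neither passed there. Of all tested genes, 27 passed with that covariate, against 306 without it.

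The 4 next by p in the mesenchyme did not pass. Nnt, the mitochondrial transhydrogenase that makes NADPH, had a log2 fold change of 0.83 (edgeR adjusted p = 0.29). Slc25a17, a peroxisomal cofactor carrier, had 0.80 (adjusted p = 0.30) and Slc25a51, the mitochondrial NAD carrier, had 0.51 (adjusted p = 0.36). Parp9, an interferon-inducible member of the polymerase family, had 1.48 (adjusted p = 0.61). Of 8 genes of the methyl cycle, which supplies the methyl donor Nnmt uses, 5 could be tested and 0 passed by edgeR, DESeq2 or limma-voom, 0 also at an unadjusted p of 0.05 in edgeR, with a median of -0.03.

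**Figure D2:**
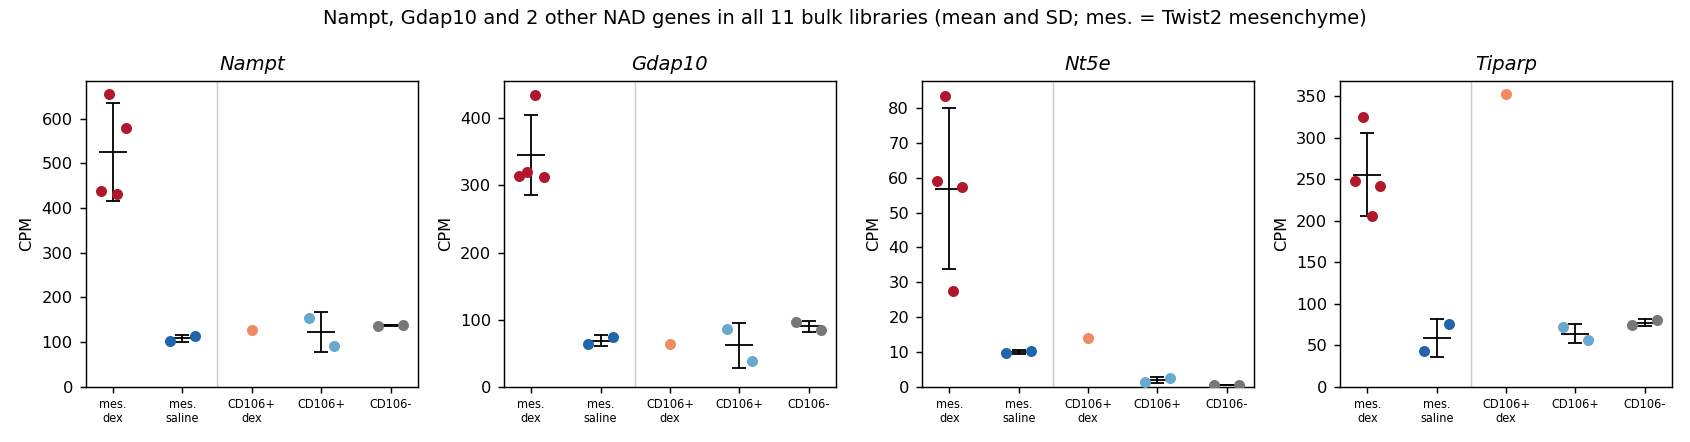
Level in CPM of Nampt, of Gdap10 inside its span, and of Nt5e and Tiparp in the 11 bulk libraries; points are libraries, lines are group means and error bars are SD. All 4 genes are higher in every dexamethasone mesenchyme pool than in either saline pool, while in the dexamethasone CD106+ library Tiparp sits at 353 CPM and Nampt at 127 CPM.

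The comparison of CD106+ with CD106- cells asks which of these genes differ between the fractions for which the labels name no treatment. Here 10.0% of 12364 tested genes passed, 6.67% as higher and 3.35% as lower in CD106+ cells. Of the 9 genes 7 could be tested, and 1, Nmnat2, was higher in CD106+ cells. It had 14.8 and 11.5 CPM in the CD106+ libraries, against 1.73 and 0.83 CPM in the CD106- libraries, on 74 and 82 counts against 9 and 5. The groups did not overlap, which held for 25.7% of tested genes in that direction. The log2 fold change was 3.33 (SE 0.68, edgeR adjusted p = 0.0014), a ratio of means of 10.3. The 9 genes were chosen with earlier results of these data known, so their values here too are a description. Nmnat2 still passed with any 1 library left out, at a highest edgeR adjusted p of 0.039.

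Nampt did not pass, with 154 and 90.7 CPM in CD106+ cells and 136 and 138 CPM in CD106- cells. The CD106+ libraries lay on either side of the CD106- libraries, and the log2 fold change was -0.19 (SE 0.29, edgeR adjusted p = 0.82). It depended on the library: without CD106+ library 1 it was -0.71 (adjusted p = 0.023), and without CD106+ library 2 it was 0.20 (adjusted p = 0.77). Nmnat3 had 11.4 and 7.15 CPM in CD106+ cells, against 13.8 and 14.0 CPM in CD106- cells, and did not pass at a log2 fold change of -0.62 (SE 0.50, edgeR adjusted p = 0.59). Parp1 had 119 and 173 CPM in CD106+ cells, against 177 and 162 CPM in CD106- cells, with overlapping groups and a log2 fold change of -0.27 (SE 0.27, edgeR adjusted p = 0.69). Sirt1 had 76.0 and 67.3 CPM in CD106+ cells, against 62.7 and 88.2 CPM in CD106- cells, and also overlapped. Nadsyn1 and Nadk were within 0.13 of no change on the log2 scale, with SE of 0.66 and 0.38.

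Of the 48 other NAD genes 33 could be tested between the CD106 fractions and none passed the edgeR test, with a median of -0.13 beside 0.05 over all tested genes. Among those and the methyl cycle genes, the 4 next by p were Ahcyl2 at -0.82 (edgeR adjusted p = 0.095), Parp4 at -0.65 (adjusted p = 0.27), the deacetylase Sirt2 at 0.79 (adjusted p = 0.29) and Parp14 at -0.99 (adjusted p = 0.32). Among the 33, 0 were under an unadjusted p of 0.05 in edgeR, where 2446 of all 12364 tested genes were. DESeq2 and limma-voom also called 0 of the 33. The fractions differed widely in cell type. All 7 mesenchymal markers were higher in CD106+ cells, but they include Vcam1, which is CD106 itself, so its rise follows from the sort. In the same cells 5 of 7 epithelial markers were lower, and 4 of 6 endothelial and 4 of 4 liver plasma markers were higher. Summed liver CPM was 396 and 916 in CD106+ cells against 33.5 and 99.4 in CD106- cells. Summed cardiac markers were at 953 and 69.4 CPM in CD106+ cells, against 90.4 and 22.5 CPM in CD106- cells. The part of these cell types in the difference in Nmnat2 was not tested.

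**Figure D3:**
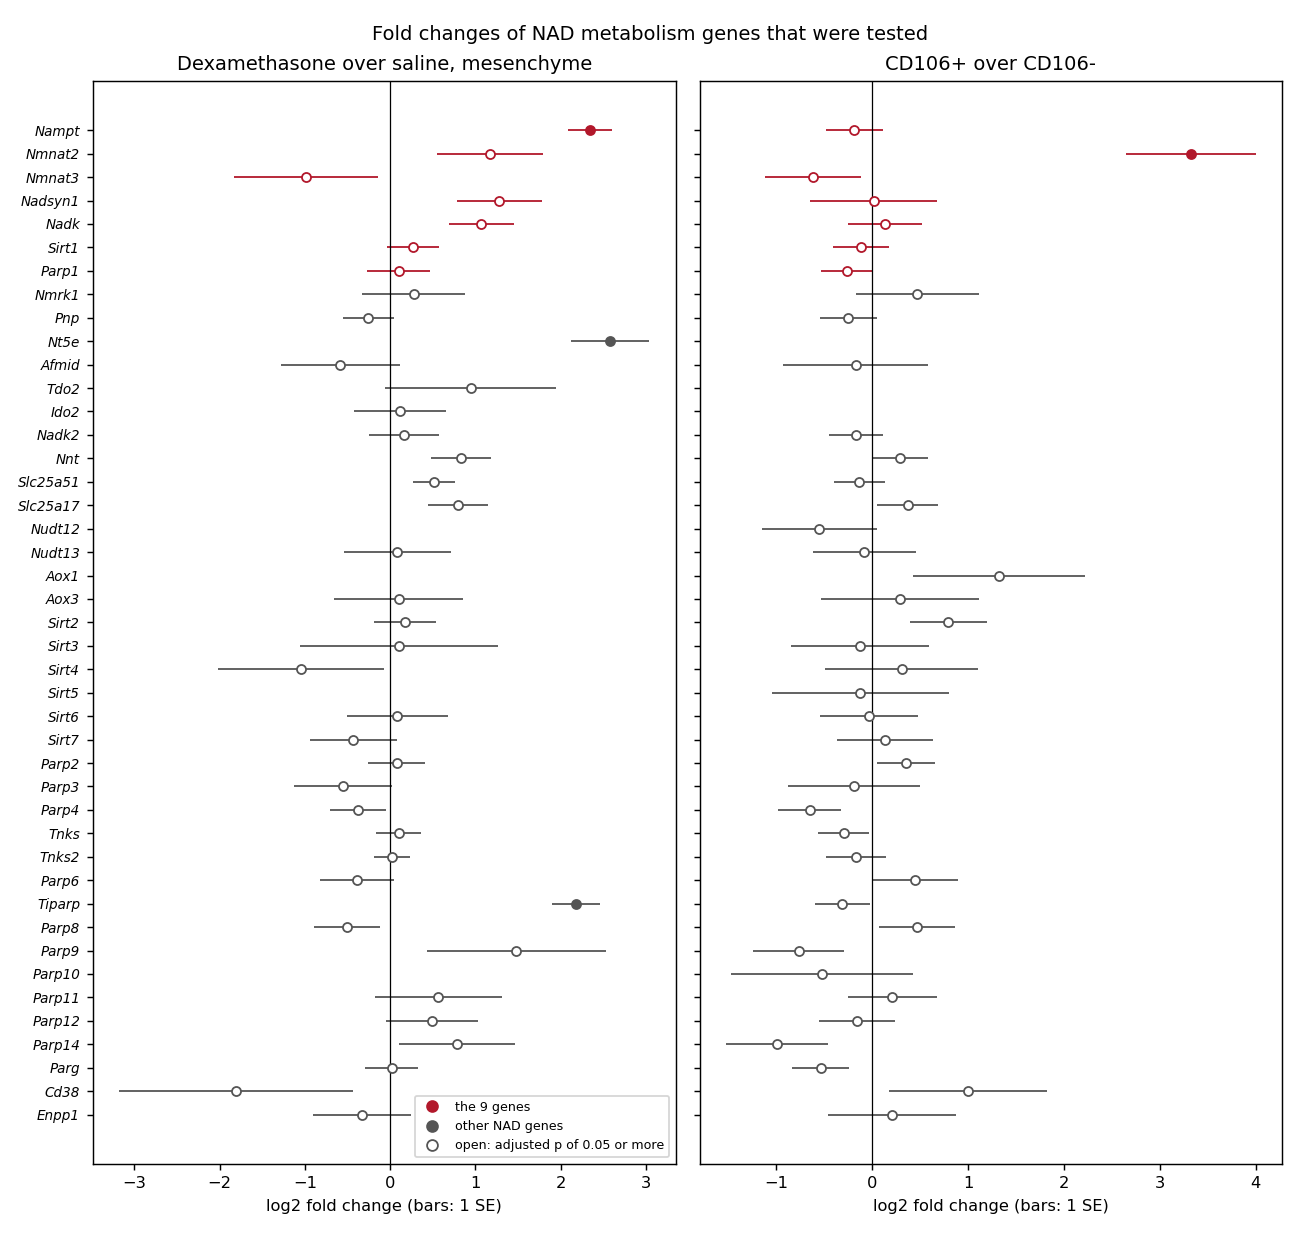
Log2 fold changes of the NAD genes that could be tested, dexamethasone over saline mesenchyme on the left and CD106+ over CD106- cells on the right; bars are 1 SE, red marks the 9 genes, grey the other NAD genes, and open circles an adjusted p of 0.05 or more. All the genes shown were listed with earlier results of these data known, so both panels are a description. Filled points on the left are Nampt at 2.35, Nt5e at 2.58 and Tiparp at 2.18, and on the right Nmnat2 at 3.33.

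The dexamethasone CD106+ library had no replicate and came from a table of its own, so treatment and table cannot be told apart. It was set against the mean of the 2 CD106+ libraries as a log2 ratio of CPM plus a pseudocount of 1, with no test. Nampt had 127 CPM there (exact Poisson interval 116 to 139, counting error only), against 154 and 90.7 CPM in the CD106+ libraries, between the 2 and at a log2 ratio of 0.05. Sirt1 had 169.9 CPM, above 76.0 and 67.3 CPM in the CD106+ libraries, at 1.23. Parp1 had 41.9 CPM, below 119 and 173 CPM, at -1.77. Nmnat2 had 3.43 CPM, below 14.8 and 11.5 CPM, at -1.68, and Nmnat3 had 2.37 CPM, below 11.4 and 7.15 CPM, at -1.61. Nadsyn1 and Nadk were at 0.11 and 0.07, within the 2 CD106+ libraries.

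Of the 9 genes 7 had a mean of at least 5 CPM, of which 1 was past a log2 ratio of 1 as higher and 3 as lower, where 28.6% of 10771 genes were past it, 11.5% as higher and 17.1% as lower. The median over all genes was -0.21, so the ratios stand against a general shift of that size. Of the 48 other NAD genes 27 were at that level, 9 past 1 as higher and 4 as lower, with a median of 0.59. The 9 were Pnp, Nt5e, Aox3, Parp3, Tiparp, Parp9, Parp12, Parp14 and Cd38, and the 4 were Nadk2, Nnt, Slc25a17 and Parp11. Tiparp had 353 CPM in the dexamethasone library, against 71.8 and 55.6 CPM in the CD106+ libraries, at 2.45, and Nt5e had 14.0 CPM, against 1.20 and 2.38 CPM, at 2.42. Both also rose in the mesenchyme pools, whereas Nampt was at 0.05 here. Cd38, an NAD glycohydrolase of immune and other cells, had 74.4 CPM, against 6.62 and 2.38 CPM, at 3.78, and Parp14 had 66.0 CPM, against 9.62 and 4.63 CPM, at 3.04. In the same library the 6 endothelial markers summed to 2152 CPM, against 100.1 and 77.8 CPM, and the 6 immune markers to 73.6 CPM, against 4.01 and 14.6 CPM. The 5 erythroid markers were also higher, at 25.7 CPM against 4.90 and 6.51 CPM. The 7 epithelial markers were lower, at 1431 CPM against 2357 and 3948 CPM. So were the 4 liver plasma markers, at 5.80 CPM against 396 and 916 CPM. Cartilage and smooth muscle sums were lower too, and those of mesenchyme, mesothelium and heart lay between the CD106+ libraries. Vcam1, which is CD106, was at 0.43 of the CD106+ mean. The part of these cell types in the ratios was not tested. Of the glucocorticoid targets, Errfi1 had 1513 CPM, against 295 and 272 CPM, and Tsc22d3 had 70.7 CPM, against 32.9 and 35.7 CPM. Fkbp5 had 49.6 CPM, against 12.6 and 35.5 CPM in the CD106+ libraries. Per1 was not higher: it lay within the CD106+ libraries, at a ratio of 1.04 to their mean.

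In the single cells, which no label ties to an animal, each treatment counts as 1 sample and no test was made. Nampt was counted in 6 of 15 dexamethasone cells (40%, exact binomial interval 16.3 to 67.7%) and in 2 of 11 saline cells (18.2%, interval 2.28 to 51.8%). In the dexamethasone cells that had it, Nampt was at 723, 45.2, 22.1, 3.62, 3.13 and 3.03 CPM, and in the saline cells at 0.86 and 0.80 CPM. It passed 20 CPM in 3 dexamethasone cells and in 0 saline cells, and 1 dexamethasone cell held 95.3% of all Nampt counts of its group. Thinned to 200000 counts per cell, with no cell left out, 5 dexamethasone cells and 0 saline cells had a count. Dexamethasone cells were shallower, with a median total of 852850 counts and 3429 genes, against 1349765 counts and 5110 genes in saline cells.

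The other members were counted in few cells. Nadk was counted in 5 dexamethasone and 5 saline cells, reaching 1828 CPM in a dexamethasone cell and 425 CPM in a saline cell. Sirt1 was counted in 4 dexamethasone and 4 saline cells, Nmnat2 in 4 dexamethasone cells and 1 saline cell, and Nmnat1 in 2 dexamethasone and 2 saline cells. Parp1 was counted in 1 dexamethasone and 3 saline cells, and Nadsyn1 in 1 dexamethasone cell and 0 saline cells. Nmnat3 and Nnmt were counted in 0 of 15 dexamethasone cells, which allows a share of up to 20% of cells with a count (3 cells of the total), and in 0 of 11 saline cells, which allows up to 27.3%. These limits are on cells with a count at this depth, not on cells that express the gene. The dexamethasone cell with 723 CPM of Nampt also had 221 CPM of Nmnat2 and 320 CPM of Parp1, the most of each in any cell. None of the members was counted in 3 dexamethasone cells and 1 saline cell, and no cell had more than 3 of them. Tiparp was counted in 7 dexamethasone and 6 saline cells, and Nt5e in 0 dexamethasone and 3 saline cells, the highest at 2991 CPM.

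The glucocorticoid targets in these cells did not all follow the labels. Tsc22d3 averaged 156 CPM in dexamethasone cells and 772 CPM in saline cells, and Fkbp5 averaged 49.99 CPM in dexamethasone cells and 116 CPM in saline cells, both lower in the cells labelled dexamethasone. Errfi1 averaged 258 CPM in dexamethasone cells and 13.4 CPM in saline cells, and Per1 averaged 14.2 CPM in dexamethasone cells and 6.88 CPM in saline cells, both higher in the cells labelled dexamethasone. Of the summed Errfi1 counts of the dexamethasone cells, 1 cell held 75.5%. Pecam1, an endothelial gene, was above 100 CPM in 1 dexamethasone and 5 saline cells. The mesenchymal gene Col1a2 was counted in every cell and the epithelial gene Epcam in none, and 1 index code was shared between a dexamethasone and a saline cell. The difference in Nampt is therefore given for the cells labelled dexamethasone and saline, and the parts of depth, cell type and label in it were not tested.

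**Figure D4:**
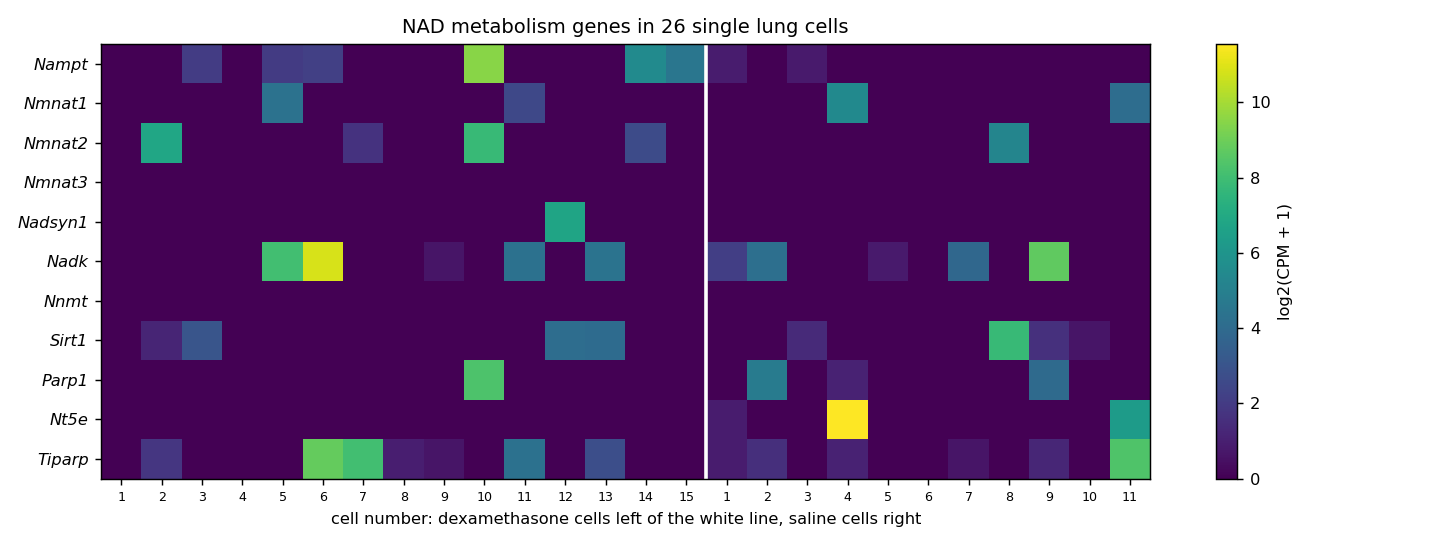
Heat map of log2(CPM + 1) of the 9 genes, Nt5e and Tiparp in the 15 dexamethasone cells, left of the white line, and the 11 saline cells, right of it; 1 column is 1 cell. Most squares are at 0, and the Nampt row is brightest in dexamethasone cell 10, at 723 CPM, which also has Nmnat2 and Parp1.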

How the data were processed

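The series holds RNA from 11 bulk libraries and from 26 single cells. The authors deposited expected counts per gene symbol in 4 tables; in a bulk library, 4.42 to 8.68% of values were not whole (tolerance 0.0005). The ribosomal RNA precursor Rn45s took 0.902 to 9.83% of the counts of a bulk library. The tools, per the submitters' processing notes, were Partek, TopHat2, Trim Galore, Bowtie2, MACS2 and HOMER, on mm10, with no role or version. How reads were counted, and whether by strand, is not given in the sources used here. For Sirt1, 3 bulk libraries held a value that was not whole, and for Nadk 1 did. Per the labels, the column of the dexamethasone CD106+ table was assigned to the group whose description names that table.

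Expected counts were rounded, filtered with filterByExpr, scaled by TMM and tested in edgeR by quasi-likelihood (robust), using only the samples of the groups being compared, and Benjamini-Hochberg adjustment over all genes tested at 0.05 (R 4.3.3, edgeR 4.0.16). DESeq2 1.42.0 and limma 3.58.1 were alternatives. CPM are of total counts. Intervals and floors (3 counts) are 95%. Poisson intervals and floors cover counting error only, and binomial intervals cover the draw of cells, taken as independent. The fit was tested on simulated data. In the mesenchyme it recovered 4.26% of true log2 changes of 1 and 59.3% of true log2 changes of 2. Between CD106 fractions it recovered 24% and 74.0% of them. A gene that did not pass may therefore still have changed. False calls were 5 of 63 in the mesenchyme and 8 of 103 between CD106 fractions, so a gene that passed may not have changed. No 2 libraries of a group agreed within sampling noise (chi-square per degree of freedom 9.15 to 37.9). In all 4 tables, all 9 symbols were found, and 8 of the 9 matched a promoter window. The cells were neither clustered nor checked for doublets.

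The 9 genes and all lists were chosen with earlier results of these data known. Genes named beyond the 9 are, of 48 other NAD genes and 8 methyl cycle genes, those past the threshold or up to 4 by smallest p per comparison, with glucocorticoid targets, markers, and the 5 genes most like Nampt and the 5 most like Nnmt. The genes past a log2 ratio of 1 in the dexamethasone CD106+ library fall outside this rule and were named after their values were seen. Alternatives tried were DESeq2 size factors, library totals, no filter, DESeq2, limma-voom, a replicate block, Rn45s left out, each library left out, Xist or cartilage markers as a covariate, other pseudocounts, and Pecam1-rich cells left out.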

Additional observations from a re-analysis of the deposited data

Results flagged for a closer look

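Among the 4 dexamethasone mesenchyme pools, the level of Nmnat3 in pool 2 stood apart from the others: it was at 1.02 CPM, on 3 counts, where the other pools were at 4.02 to 4.50 CPM. The gap to the nearest pool was 0.863 of the whole range, past Dixon's 95% limit. Chance gives such a flag in about 1 in 20 groups, and 19 were looked at.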

How the results depend on the processing

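In the mesenchyme, 306 genes passed in edgeR's quasi-likelihood test. The count was 598 with no filter, 512 with DESeq2, 154 with a replicate block, 186 with Xist as a covariate, 27 with cartilage markers as a covariate, and 179 to 335 with 1 pool left out; it was 179 without dexamethasone pool 1, 186 without dexamethasone pool 4 and 193 without saline pool 1. Of the whole NAD list, 3 genes passed in the main analysis and 1 with the cartilage covariate. Of the members, Parp1 changed sign with the Xist covariate (-0.32) and within its range with 1 pool left out (-0.38 to 0.92), and Nmnat2 with the cartilage covariate (-0.029); of the other genes, Parp9 did so with the Xist covariate (-0.43). Between CD106 fractions, 1239 genes passed, and 546 to 2756 with 1 library left out, lowest without CD106- library 1 and highest without CD106+ library 1; it was 686 without CD106- library 2. With 1 library left out, 1 to 2 members and 1 to 4 genes of the NAD list passed, Nampt ran from -0.71 to 0.20, Nadsyn1 from -0.31 to 0.26, Nadk from -0.18 to 0.47 and Sirt1 from -0.39 to 0.19. Nadsyn1 was also -0.012 with DESeq2 size factors, -0.014 with DESeq2 and -0.0079 with the replicate block. Where a group is left with 1 library, that library is assumed to vary like the others. With a pseudocount of 5 CPM in place of 1, the log2 ratio of mean Nampt in single cells was 3.50, against 5.56. A fit of the dexamethasone CD106+ library with the other CD106+ and the CD106- libraries gave log2 fold changes of 0.18 for Nampt, 1.39 for Sirt1, -1.64 for Parp1, -1.80 for Nmnat2 and -1.82 for Nmnat3, given with no test. The causes of these changes were not tested.

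Replicate numbers were not shown to pair samples: deviations of same-numbered samples correlated at -0.06 and 0.16 in the mesenchyme and at 0.05 in the CD106 fractions. With the replicate block, Nampt in the mesenchyme was at 2.37 and 1276 genes passed between CD106 fractions. Depth limits Nmnat1 and Nnmt, which had at most 14 counts in any bulk library.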

Other observations

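Nnmt, at 0 in 6 of 11 bulk libraries, was followed most closely over those libraries by Zbtb24, Nek7, Zfp1, Pdxdc1 and Ino80c, with Pearson's r of 0.84, 0.82, 0.82, 0.82 and 0.81 over 11 libraries and 6681 genes. Nnmt counts were so few that these values describe the pools with 11 and 14 counts.

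The E-box CACGTG was in the promoter windows of Sirt1, of Parp1 and of the second listed start of Nadk, and in none of the windows of Nampt, Nmnat1, Nmnat2, Nmnat3 and Nadsyn1. The Sirt1 window held 2 copies and that of Parp1 held 1. The GCGTG or CACGC core was found 3 times at the second start of Nadk, 2 times in Sirt1 and 1 time in Parp1 and Nmnat3.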
